A study of Drosophila melanogaster with 4 samples.

Results

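The broad domains described here were the KDM4A-enriched regions of at least 8000 bp in the authors' list for the replicate set, with the depletion region of that list left out. There were 456 of them among 8653 enriched regions, or 5.27% of the regions, and they held 5.26 Mb, or 19.9% of the listed sequence. The members were chosen by their width in the replicate-set list alone, so width and the score deposited with each region are given as descriptions and were not tested. Chromatin immunoprecipitation followed by sequencing (ChIP-seq) with the antibody Q2541 against KDM4A, also called JMJD2A, was run on 2 samples of head nuclei from wild-type Oregon-R flies labelled as mixed adults, and 2 samples of input chromatin accompanied them. All samples shared this strain, stage and tissue, and heads were separated from whole flies with sieves, per the labels' protocols, so each sample mixes neurons, glia, eye and other head cells. Each replicate has a list of its own, and the inputs enter only through the authors' calls. No label says that the replicates came from separate collections, so their spread may be technical.

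KDM4A is a histone demethylase that takes methyl groups off lysines of histone H3. In flies it acts on H3K36 methylation, a mark of transcribed gene bodies, and it binds the heterochromatin protein HP1a, which marks the chromatin around centromeres and on the small chromosome 4. Positions are on FlyBase release 5, counted from 1. No annotation or sequence of that release was used here, so domains are named by position.

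The domains were mostly only a little wider than the limit that chose them. The narrowest measured 8009 bp, the median 10276 bp and the widest 33251 bp, with quartiles at 8840 and 13035 bp. Of the 456 domains, 150 (32.9%) reached 12000 bp, 45 (9.87%) reached 16000 bp and 17 (3.73%) reached 20000 bp. The 3 members just inside it measured 8009, 8011 and 8015 bp and scored 1.65, 1.45 and 1.41. The 3 regions just outside measured 7994, 7969 and 7922 bp and scored 0.75, 1.40 and 1.78, so the scores of these 3 and 3 regions overlapped.

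The widest domain, 33251 bp on 3R at 7032703 to 7065953, was nearly continuous in both replicates. It was a single region of 32095 bp in replicate 2, which covered 96.2% of it, and lay in 3 pieces in replicate 1, which covered 95.1% with gaps of only 196 bp in all. The next, 28947 bp on 2L at 19029470 to 19058416, lay in 4 pieces in each replicate, with 88.5% covered in replicate 1 and 83.6% in replicate 2. The 2L domain at 11984799 to 12013547, 28749 bp wide, was a single region in replicate 1 (95.5% covered) and had a single break of 497 bp in replicate 2 (98.1% covered). At a similar width in the replicate-set list, the replicates thus held a single region in some domains and several pieces in others.

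The other members of the 10 widest ranged from a single region in a replicate to 5 pieces in each. The 3R domain at 5380053 to 5408487 lay in 4 pieces in replicate 1 and 5 in replicate 2, with 85.9% and 85.7% covered. The 2L domain at 4440066 to 4468351 was a single region of 26784 bp in replicate 1 but lay in 3 pieces in replicate 2, around a gap of 2272 bp. The 3R domain at 11030501 to 11057083 showed the opposite: replicate 2 covered it in full with a single region of 26803 bp, while replicate 1 had 4 pieces over 85.2% of it. On 3R at 23739475 to 23766343 both replicates had 3 pieces, over 97.3% and 95.9%, and at 5901583 to 5927397 both again had 3 pieces, over 87.0% and 95.5%. The 10 widest also included the widest on 2R, 25733 bp at 15316462 to 15342194, with only 65.6% covered in replicate 1 against 87.8% in replicate 2. The tenth, 25060 bp on 2R at 3386312 to 3411371, lay in 5 pieces in each replicate and scored 0.85.

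Broad domains lay mostly in the upper part of the list by score. Their median score was 1.36 (quartiles 1.17 and 1.61), against 0.59 (quartiles 0.44 and 1.05) for the 8197 narrower regions, a difference of 0.78. The scale of the score is not stated, so differences and ranks are used and not folds. Of the 456 domains, 451 (98.9%) scored above the median of the whole list and 364 (79.8%) lay in its top 25%, while none lay in its bottom 25%. At its very top they made up 1 of the 10 highest-scored regions, 3 of the highest 50 (6.00%), 5 of the highest 100 (5.00%) and 36 of the highest 500 (7.20%), shares near the 5.27% that they made up of the whole list.

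Median scores were higher in wider classes up to about the limit and close to each other above it. The median was 0.45 in regions under 2000 bp, 0.81 from 2000 to 3999 bp and 1.25 from 4000 to 7999 bp, and then 1.36, 1.36 and 1.39 in the 3 classes of broad domains, from narrow to wide. Across the domains score and width had a Spearman rho of 0.03, against 0.60 across the narrower regions. These are descriptions across regions of 1 list, which share its calls and are not independent. Against the 1364 regions of 4000 to 7999 bp, the domains' median was higher by 0.11. The domains differed more in the lower end of their scores: their lower quartile was 1.17 against 0.94. The lowest domain score was 0.55, against 0.32 among the regions of 4000 to 7999 bp. Of all 8197 narrower regions, most of them under 4000 bp, 3628 (44.3%) scored below 0.55.

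**Figure D1:**
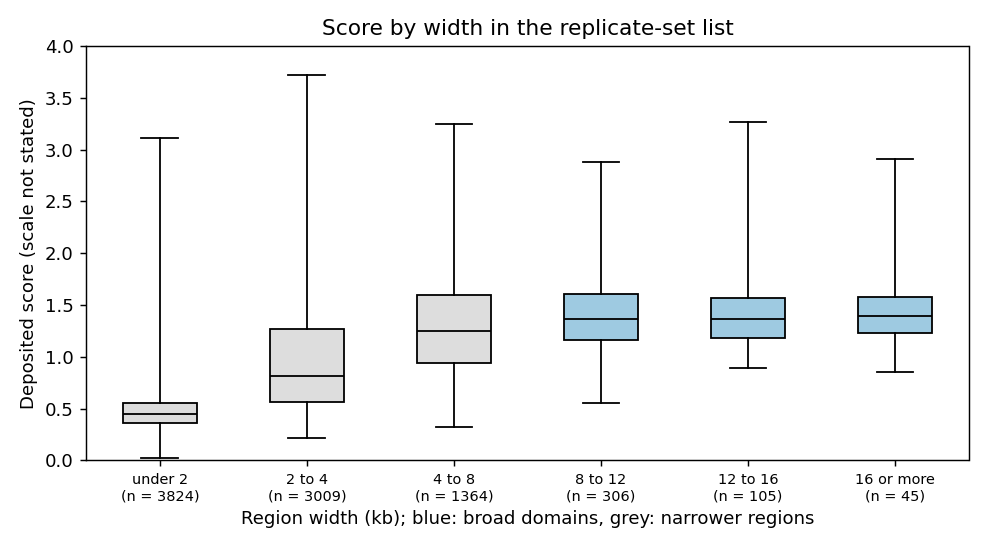
Deposited score (vertical axis, scale not stated) by region width in kb for the replicate-set list. Boxes span the quartiles with a line at the median, whiskers reach the lowest and highest region, and n is the number of regions: the median climbs from 0.45 in the narrowest class to 1.36 in the first class of broad domains (blue) and is 1.39 in the widest.

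The single replicates, each taken by its own list, had the same order. In replicate 1 its own regions of at least 8000 bp had a median score of 1.68, against 1.01 for its narrower regions. In replicate 2 the values were 1.48 and 0.95. The difference was therefore 0.68 in replicate 1 and 0.53 in replicate 2. In both lists the highest score belonged to a narrower region, at 3.95 in replicate 1 and 3.53 in replicate 2. The narrower regions here were of all widths, and those of 4000 to 7999 bp were not compared by themselves.

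The highest-scored domain lay on 2L at 2190990 to 2204485. It was 13496 bp wide, scored 3.27, and ranked 2 in the whole list. Each replicate held it as a single region, of 13683 bp with a score of 3.56 in replicate 1 and of 13278 bp with a score of 2.88 in replicate 2. Its score was far above the domains' upper quartile, and its width was a little above their upper quartile of 13035 bp.

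Next in score were the wide 2L domain at 11984799 named above (score 2.91) and a domain of 10584 bp on 3R at 9622798 to 9633381 (score 2.88), which was a single region in both replicates with scores of 3.23 and 2.63. The remaining members of the 10 highest-scored scored from 2.13 to 2.50. They lay on 3R (25864172 to 25875734, 12084130 to 12092375, 24935883 to 24950209 and 27038049 to 27049378), 3L (16572827 to 16585295), 2L (18701590 to 18710012) and X (7822899 to 7831075). The 3L domain, 12469 bp wide, was almost wholly one region in each list, with 99.8% covered in replicate 1 and 96.5% in replicate 2. The X domain was the only one of the 10 whose length-weighted score was higher in replicate 2, at 2.31, than in replicate 1, at 2.18.

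The mean score of the replicates' pieces in a domain, weighted by the length inside the domain, had a median of 1.54 in replicate 1 and 1.42 in replicate 2. The weighted score was higher in replicate 1 than in replicate 2 in 309 domains (67.8%), as in 64.2% of the regions of 4000 to 7999 bp that both replicates overlapped. Across the domains the weighted scores of both replicates had a Spearman rho of 0.68, a description across regions with no p. Scores of separate lists may be on separate scales, so the difference of level between them is not read as a difference in binding.

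How each replicate covered the domains was asked next. Both replicates may have entered the replicate-set list, so their coverage of it was described and not tested. Every domain was overlapped by a region of both replicates, as were 52.4% of all regions and 98.1% of those of 4000 to 7999 bp. Replicate 1 covered 85.4% and replicate 2 covered 88.4% of the domains' sequence, a mean of 86.9 ± 2.13% (SD, n = 2), against 68.1 ± 3.53% (SD, n = 2) of the narrower regions' sequence. For the regions of 4000 to 7999 bp it was 82.9 ± 0.705% (SD, n = 2), so most of the gap to the narrower regions came from those under 4000 bp.

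At least 50% of the domain was covered in 449 of 456 domains in replicate 1 and in 452 in replicate 2, while 66.5% and 62.1% of all regions met this in the same lists. In 445 domains (97.6%) both replicates covered at least 50%, as they did in 48.8% of all regions. The median domain was covered over 87.6% in replicate 1 (quartiles 78.8 and 94.5%) and over 91.4% in replicate 2 (quartiles 82.8 and 96.9%). Replicate 1 covered 6 domains in full (1.32%) and replicate 2 covered 17 (3.73%), against 10.9% and 8.94% of all regions. In 111 domains (24.3%) both replicates covered at least 90%, as in 15.4% of all regions. Of the regions of 4000 to 7999 bp, 88.3% were covered over at least 50% by both replicates and 22.5% over at least 90%. Both shares lay nearer to those of the domains than to those of all regions. Replicate 1 covered 6.74% of the regions of 4000 to 7999 bp in full and replicate 2 covered 8.21%.

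The covered shares of both replicates had a Spearman rho of -0.01 across the 456 domains, given as a description. There were 31 domains below the lower quartile of covered share in both lists. How many unrelated shares would place there was not computed, so these domains are not read as a shared set. The counts in this paragraph were not made for narrower regions. The shares differed by at most 10 percentage points in 239 domains and by at most 25 in 398, with a median difference of 9.38 points. Replicate 2 covered the larger share of 268 domains and replicate 1 the larger share of 188.

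The least covered domains were each well covered in the other replicate. On 2L at 5910596 to 5920627, replicate 1 had a single region of 2049 bp over 20.4% of the domain, while replicate 2 covered it in full. On 2R at 16884796 to 16894228 the order was turned round, with 95.1% in replicate 1 and 21.9% in replicate 2. Replicate 1 covered 30.1% and replicate 2 covered 85.1% of the 3R domain at 27605318 to 27615838, and the shares were 38.2% and 85.4% on 3R at 21806477 to 21814874. On X at 13100464 to 13108631 they were 99.1% and 33.1%. The fifth of the largest differences, on 3R at 7615295 to 7623845, had 44.3% in replicate 1 and 96.1% in replicate 2. Of these 6 domains, 4 scored from 0.55 to 0.64, at the low end of the domains' scores, the 3R domain at 7615295 scored 0.87 and the X domain scored 1.28.

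**Figure D2:**
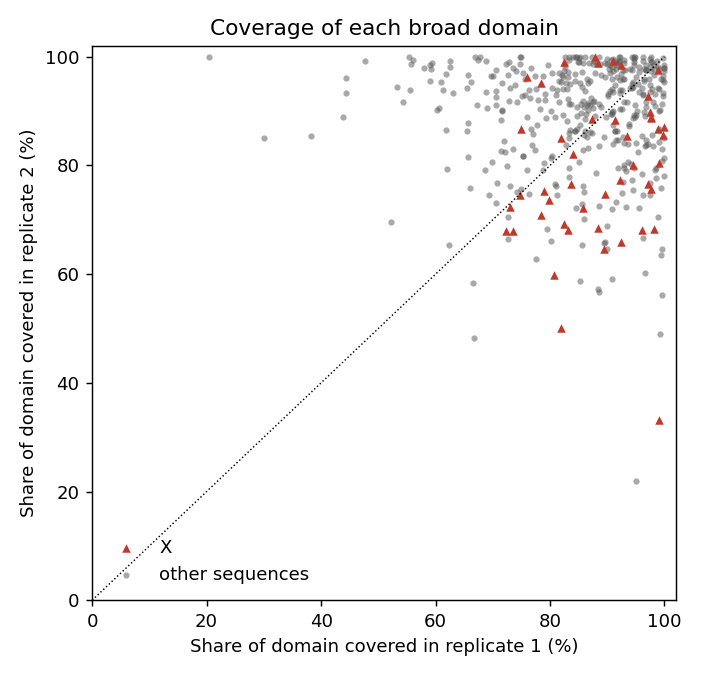
Share of each of the 456 broad domains covered by the list of replicate 1 (horizontal axis, %) and of replicate 2 (vertical axis, %). Each point is a domain, triangles mark those on X, and the dotted line marks equal shares. Most points lie in the upper right and few domains fall below 50% in either list. Below the line lie 36 of the 46 X domains and 148 of the 403 on the autosomal arms. Narrower regions are not drawn.

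Base by base, both replicates covered 76.9% of the domains' sequence (4.05 Mb). Replicate 1 alone covered 8.50% and replicate 2 alone 11.5%. The remaining 3.06%, or 161 kb, was in neither list although it lay inside a replicate-set region. Of the bases that replicate 1 left out, replicate 2 covered 79.0%, and of those that replicate 2 left out, replicate 1 covered 73.5%.

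Most domains were in pieces in at least 1 replicate. Replicate 1 held 152 domains (33.3%) as a single region and replicate 2 held 189 (41.4%), a mean of 37.4 ± 5.74% (SD, n = 2). Over all regions of the list the shares were 61.4% in replicate 1 and 57.5% in replicate 2, but many narrow regions had no replicate region at all. The closer comparison is with regions of 4000 to 7999 bp, of which 77.9 ± 2.90% (SD, n = 2) were held as a single region. A single region did not need to span the domain, as the 2L domain at 5910596 shows.

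Wider domains lay in more pieces, with a mean of 1.72, 2.15 and 2.78 in replicate 1 and of 1.67, 2.08 and 2.56 in replicate 2 over the 3 classes from narrow to wide. In replicate 1, 208 domains lay in 2 pieces, 77 in 3, 18 in 4 and 1 in 5, and in replicate 2 the numbers were 172, 73, 19 and 3. The share held as a single region was 40.5% in replicate 1 and 48.4% in replicate 2 from 8000 to 11999 bp, 21.0% and 29.5% from 12000 to 15999 bp, and 13.3% and 22.2% above that. The largest piece covered a median of 59.0% of the domain in replicate 1 and 66.9% in replicate 2.

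**Figure D3:**
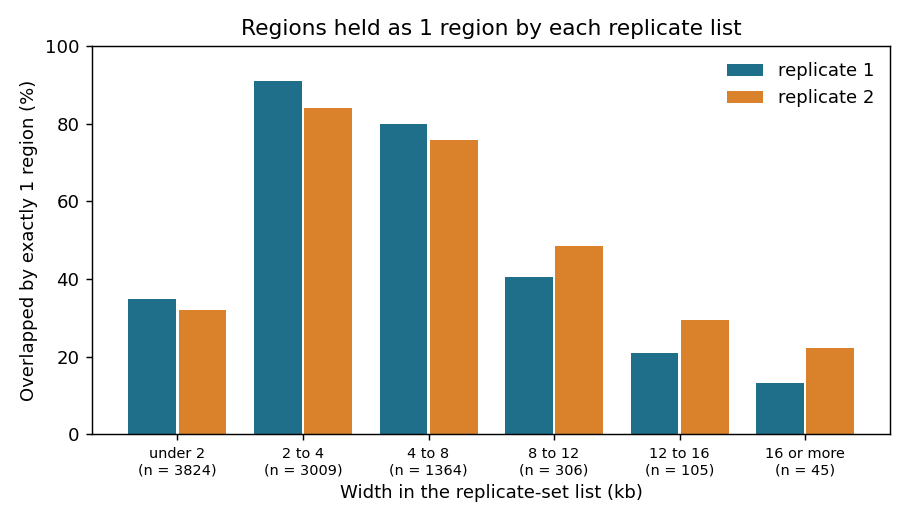
Share of replicate-set regions (vertical axis, %) that exactly 1 region of a replicate list overlaps, by width class in kb, with n the number of regions and 1 bar for each replicate. The share is 91.0% and 84.1% from 2000 to 3999 bp, and falls to 13.3% and 22.2% in the widest class.

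The breaks were short. Of the 304 domains split in replicate 1, the largest gap had a median of 675 bp and reached 3502 bp, and of the 267 split in replicate 2 it had a median of 583 bp and reached 5384 bp. Every gap was at most 500 bp in 116 of the domains split in replicate 1 and in 120 of those split in replicate 2. A gap over 2000 bp was found in 37 domains in replicate 1 and in 27 in replicate 2. With gaps of at most 500 bp bridged, 63.3% of the domains were held as a single region, in place of 37.4%.

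Where both replicates split a domain, the breaks often lay apart. Both lists split 187 domains, both held 72 as a single region, and of the others 80 were single in replicate 1 alone and 117 in replicate 2 alone. In 92 of the 187 (49.2%) a break of replicate 1 overlapped a break of replicate 2. Of the 269 breaks of replicate 1 in these domains, 103 (38.3%) overlapped one of the 282 breaks of replicate 2. What share unrelated breaks would reach was not computed.

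More of the uncovered sequence lay at the domains' ends than in breaks. In replicate 1, 766 kb of the domains was uncovered, of which 57.7% lay outside the outermost pieces, and in replicate 2 it was 608 kb and 56.1%. The outermost edge of the replicate's pieces lay within 100 bp of the domain's edge at 37.8% of the 912 edges in replicate 1 and 29.1% in replicate 2, and within 1000 bp at 80.5% and 77.4%. Replicate 1 ended more than 1000 bp inside the domain at 156 edges and reached more than 1000 bp beyond it at 22. Replicate 2 ended that far inside at 115 edges and reached that far beyond at 91.

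Averaged over all edges, coverage climbed over the first kilobases inside the domain. In the first 500 bp inside, 58.4% of positions were covered in replicate 1 and 62.4% in replicate 2. From 500 to 2000 bp inside it was 84.8% and 88.2%, and from 2000 to 4000 bp inside it was 89.6% and 92.2%. The regions of 4000 to 7999 bp had similar values at their edges, 61.4% and 59.3% in the first 500 bp and 86.8% and 85.8% from 500 to 2000 bp. The difference between broad domains and these regions at their edges was not tested.

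**Figure D4:**
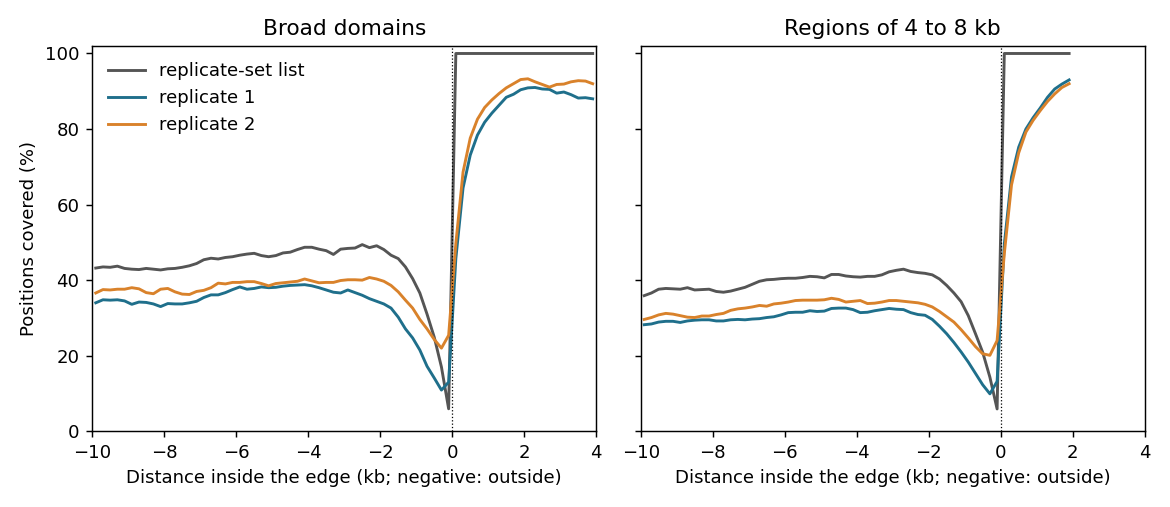
Share of positions covered (vertical axis, %) by distance from the edge in kb, both edges of each region folded together, in bins of 200 bp, for the broad domains (left) and the regions of 4000 to 7999 bp (right). The lines are the replicate-set list and the list of each replicate. Coverage reaches 89.6% in replicate 1 and 92.2% in replicate 2 at 2000 to 4000 bp inside a domain. Outside, each line recovers to a level well above its list's share of the large arms. That share is 21.3% in the replicate-set list, 16.5% in replicate 1 and 17.7% in replicate 2.

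Few domains were touched by a region of at least 8000 bp in both replicates. A touch needs only 1 bp of overlap, so such a region may lie partly or mostly outside the domain. A region of at least 8000 bp touched 86 domains (18.9%) in both replicates, against 0.994% of all regions, a share the choice by width sets. It touched 71 domains in replicate 1 only and 133 in replicate 2 only. In 166 domains (36.4%) neither replicate had a region of that width, so only the replicate-set list had a region that wide there. The 86 domains had a median width of 12926 bp and a median score of 1.50, and the 166 domains had 9323 bp and 1.31.

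A reading that does not use the replicate-set list takes each replicate's own wide regions and asks what the other replicate held there. Replicate 1 had 166 regions of at least 8000 bp (2.49% of its list) and replicate 2 had 285 (3.86%). Replicate 2 covered 87.9% of the sequence of the 166, against 71.9% of the narrower regions of replicate 1. Replicate 1 covered 80.3% of the sequence of the 285, against 65.9% of the narrower regions of replicate 2. These narrower regions were of all widths, and those of 4000 to 7999 bp were not compared by themselves. In the replicate-set list that class had 82.9% covered, against 86.9% for the domains and 68.1% for all narrower regions. Whether the differences between the replicates' own regions are particular to wide regions was therefore not tested. All 166 and all 285 were overlapped by the other list. A region of at least 8000 bp in the other list overlapped 88 of the 166 (53.0%) and 93 of the 285 (32.6%). These last counts are part of the overlapped regions and need only 1 bp of overlap with a wide region. They therefore do not measure how often the full width was shared.

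The widest regions of each replicate were largely covered by the other list. In replicate 1 they measured 27458 bp on 2L (11986079 to 12013536), 26784 bp on 2L (4440044 to 4466827) and 21884 bp on 3R (8231157 to 8253040), and replicate 2 covered 98.1%, 91.5% and 95.0% of them in 2, 3 and 4 pieces. The widest in replicate 2 measured 32095 bp on 3R (7033960 to 7066054), 26803 bp on 3R (11030381 to 11057183) and 26640 bp on 2L (11986873 to 12013512), of which replicate 1 covered 98.4%, 84.5% and 100%. The 2L region inside the domain at 11984799 was among the 3 widest in both.

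Some wide regions of a replicate did not become broad domains. In replicate 2, 58 of its 285 touched none, and in replicate 1, 8 of its 166. All of them overlapped narrower replicate-set regions, with a median of 2 such regions in each, which held 88.1% of their sequence in replicate 2 and 87.8% in replicate 1.

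Broad domains were spread over all large arms but were sparse on X. X held 46 domains, or 2.67% of its 1720 regions, against 403 domains, or 6.22% of 6484 regions, on the 4 large autosomal arms, a difference of -3.54 percentage points. Per length there were 2.05 domains per Mb on X and 4.17 per Mb on the autosomal arms. Broad domains held 10.5% of the listed sequence of X and 22.7% of that of the autosomal arms. The lists of the single replicates had the same direction, with 1.38% on X and 2.86% on the autosomal arms in replicate 1 (18 and 146 regions), and with 0.888% on X and 4.69% on the autosomal arms in replicate 2 (10 and 274 regions). The mean over both was 1.13 ± 0.347% on X and 3.77 ± 1.29% on the autosomal arms (SD, n = 2). The difference was not tested, since the smallest two-sided p that an exact sign-flip test allows with 2 replicates is 0.5.

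The shares of X and the autosomal arms lay closer below the limit. Regions of 4000 to 7999 bp made up 14.6% of the list on X and 16.6% on the autosomal arms. At least 12000 bp was reached by 15 domains on X (32.6%) and by 135 on the autosomal arms (33.5%), so these shares were alike. No domain on X reached 16000 bp, while 45 of 403 (11.2%) did on the autosomal arms. The widest on X measured 15951 bp, at 14955874 to 14971824, and lay in 2 pieces in replicate 1 and 3 in replicate 2 around gaps of 2600 and 2511 bp. The median widths, 9943 bp on X and 10345 bp on the autosomal arms, were close.

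The domains on X had a higher median score than those on the autosomal arms, and replicate 2 covered less of them. Their median score was 1.58 (quartiles 1.42 and 1.71) on X and 1.35 (quartiles 1.16 and 1.56) on the autosomal arms, and narrower regions had medians of 0.72 on X and 0.54 on the arms, so the step from narrower to broad was 0.86 on X and 0.81 on the arms. Replicate 1 covered 87.9% of the X domains' sequence and 85.3% of the autosomal domains' sequence, while replicate 2 covered 79.2% on X and 89.5% on the autosomal arms. Replicate 1 covered the larger share in 36 of 46 domains on X and in 148 of 403 on the autosomal arms. Coverage was not set against that of narrower regions on X, so it is not read as particular to broad domains. The list of replicate 2 held 1126 regions on X and that of replicate 1 held 1305, although the whole list of replicate 2 was the longer one, and the part of this in the difference was not tested.

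**Figure D5:**
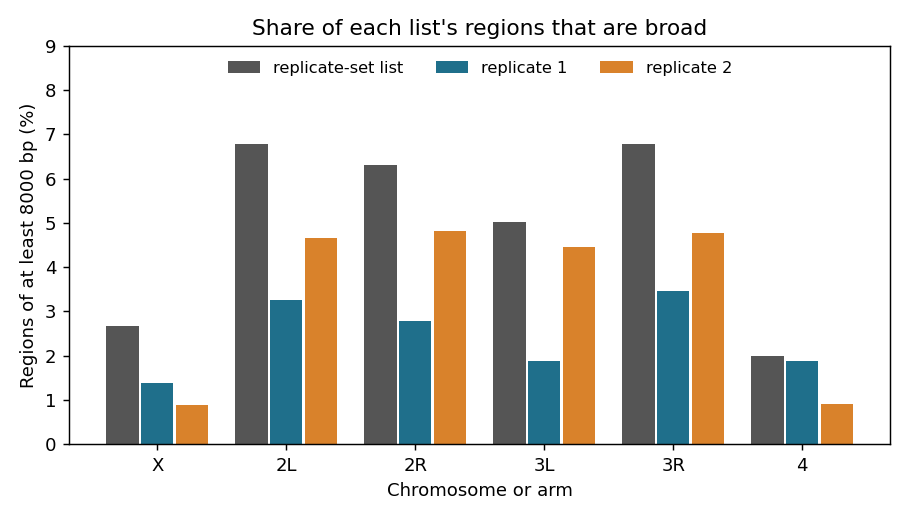
Share of regions that measure at least 8000 bp (vertical axis, %) on X, the 4 large autosomal arms and chromosome 4, with 1 bar for the replicate-set list and 1 for each replicate's own list. X has 2.67%, 1.38% and 0.888% in the 3 lists, below each autosomal arm in the same list, and chromosome 4 has only 3, 2 and 1 such regions.

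Among the autosomal arms, 3R held most domains, 123 or 6.79% of its regions, and 2R had the highest density, 103 domains or 4.87 per Mb. On 2L there were 94 (6.78%, 4.08 per Mb) and on 3L 83 (5.02%, 3.38 per Mb). The median width ran from 9595 bp on 2R to 10808 bp on 2L. The widest on 3L, 19023 bp at 6732060 to 6751082, was a single region in replicate 1, over 98.8%, and lay in 3 pieces over 70.5% in replicate 2.

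The sequences richest in heterochromatin held only a few domains. The 6 heterochromatic scaffolds held 4 domains among 173 regions (2.31%), or 0.431 domains per Mb. Chromosome 4 held 3 among 150 regions (2.00%), or 2.22 per Mb, a density near the 2.05 per Mb of X. The unplaced collection U held none among 126 regions. None of the 4 scaffold domains was a region of at least 8000 bp in either replicate. The share of these sequences to which reads can be mapped was not measured. On chromosome 4 the domain at 82476 to 91441 scored 2.11 and the one at 1046761 to 1056017 scored 1.73. Both were covered in full by replicate 1, and by replicate 2 over 78.1% and 97.4%. The remaining one, at 672379 to 682339, scored 1.05 and was covered over 43.9% in replicate 1 and 89.0%, in 4 pieces, in replicate 2.

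The scaffold domains measured 9125 bp on 2LHet (165200 to 174324), 9773 and 8745 bp on 3LHet (598399 to 608171 and 2394242 to 2402986) and 9185 bp on 3RHet (1804297 to 1813481). Their scores ran from 1.12 to 1.23, in a narrow band below the median of all domains. Replicate 1 held 3 of the 4 as a single region and replicate 2 held none.

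Toward the centromere, the last 2 Mb of the 5 large arms held 25 domains, or 2.50 per Mb, against 424, or 3.89 per Mb, over the rest. As a share of the regions there, these were 4.60% and 5.53%. The arms differed, with 14 domains or 7.00 per Mb in the proximal 2 Mb of 3R against 4.21 per Mb on its remainder, and with 1 domain or 0.500 per Mb on 3L against 3.64 per Mb. On 2L, 2R and X the proximal densities were 1.50, 2.50 and 1.00 per Mb, against 4.33, 5.12 and 2.15 per Mb.

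On all sequences together, 238 domains (52.2%) lay within 50 kb of another, 187 (41.0%) within 25 kb and 74 (16.2%) within 5 kb, measured from edge to edge. Among each replicate's own regions of at least 8000 bp, the share within 50 kb of another was 50.2% in replicate 2 but 30.7% in replicate 1. The median distance to the nearest other domain was 43809 bp, and 22 domains lay more than 500 kb from any other. No random placements were drawn, so how many would lie this close by chance is not given. Joined by gaps of at most 50 kb, the domains formed 67 pairs, 19 runs of 3, 6 runs of 4, 1 run of 5 and 3 runs of 6, and 218 stood alone.

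The longest runs held 6 domains. On 2L, 242 kb from 10198881 to 10440516 held 6 domains over 39.0% of the span, and all 37 replicate-set regions there together filled 83.2%. The domains of this run were 17324, 12863, 12025, 10472, 22530 and 19069 bp wide and scored from 0.98 to 1.41. On 3R, 169 kb from 11030501 to 11199128 held 6 domains over 51.6%, which replicate 1 covered to 86.7% and replicate 2 to 96.0%. On 2R, 186 kb from 19743427 to 19929255 held 6 domains over 45.6%. None of the domains in these runs scored above 1.77, so the runs were not made of the highest-scored domains.

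The closest neighbours were almost continuous. On 2R, 4 domains from 4776092 to 4818333 together filled all but 1765 bp of 42.2 kb, and the pair at 4791673 and 4799861 was separated by 43 bp, the smallest gap between domains. The run of 5 reached on to 4841302, but its domains filled only 76.0% of the 65.2 kb it spanned. On 3R, 3 domains from 11150568 to 11199128 filled all but 4963 bp of 48.6 kb, the longest stretch joined by gaps of at most 5 kb, and 3 from 8230664 to 8276148 filled all but 2521 bp of 45.5 kb. Such stretches were wider than any single domain, which reached 33251 bp.

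Sequence around the domains was itself densely listed. The nearest region of any width lay a median of 624 bp away from a domain, against 1543 bp for narrower regions and 832 bp for those of 4000 to 7999 bp. It lay within 1000 bp of 64.0% of the domains, against 40.1% of the narrower regions and 54.5% of those of 4000 to 7999 bp. In the 10 kb beyond each domain edge, replicate-set regions covered 43.5% of positions, against 37.5% beside regions of 4000 to 7999 bp and 21.3% of the 5 large arms as a whole. Replicate 1 covered 33.3% and replicate 2 covered 37.1% of the same flanks, against 28.4% and 31.6% beside the regions of 4000 to 7999 bp. Over the 5 large arms as a whole they covered 16.5% and 17.7%.

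By windows of 1 Mb, the 119 windows of the large arms held a median of 3 domains and at most 10. Windows with 10 were 3R from 5000001 to 6000000, 2L from 10000001 to 11000000 and 2L from 2000001 to 3000000. The 11 windows with at least 8 domains held 98 in all. Only 6 windows held none, 2 of them among the 22 of X. The number of domains and the number of all regions in a window had a Spearman rho of 0.37, a description over windows that share their lists.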

How the data were processed

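The deposited files are lists of enriched regions, each with a position and a score that the authors assigned. The score's scale, the caller, its threshold and any pooling of replicates for the replicate-set list are not given in the sources read. Per the submitters' processing notes Bowtie 0.12.7 was used, and the build is FlyBase release 5 per the file headers. The lists hold no read counts, so depth is unknown. Each input served the list of the ChIP with its own number, per the labels.

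Regions of at least 8000 bp in the replicate-set list were taken, and 1 depletion region was left out. Overlap was at least 1 bp. Coverage, pieces, gaps and runs were computed with Python 3.11.15, numpy 2.4.6 and pandas 2.3.3, and the interval functions were tested on 20 simulated lists against a base-by-base count. The named regions were the 10 widest, the 10 highest-scored, the 5 least covered, the 5 with the largest difference between replicates, the widest of each sequence, the longest runs, the 3 widest of each replicate and 3 on each side of the limit. A domain of chromosome 4, a scaffold or a tight run outside this rule was named after its values were seen. Members, comparisons and limits were chosen with earlier results of these data known. No p-value is given, since the rule used width in the same lists and with 2 replicates an exact sign-flip test allows no p below 0.5. Alternatives changed the width limit, the permitted gaps, the regions compared and the replicate used.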

Additional observations from a re-analysis of the deposited data

How the results depend on the processing

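The number of domains follows the limit: it was 890 at 6000 bp and 250 at 10000 bp, and, leaving out a replicate, ran from 166 to 285 in the other's own list, in place of 456. The score difference of 0.78 fell to 0.11 when only narrower regions of at least 4000 bp were compared, and ran from 0.53 to 0.68 leaving out a replicate. Coverage of 86.9% was 76.9% with the higher-scored 50% of each list, by construction, and ran from 85.4 to 88.4% leaving out a replicate. The share held as a single region, 37.4%, was 49.3% at 6000 bp, 28.6% at 10000 bp and 63.3% with gaps of at most 500 bp bridged, and ran from 33.3 to 41.4% leaving out a replicate. The share within 50 kb of another, 52.2%, was 70.2% at 6000 bp, 38.0% at 10000 bp and 67.5% with 100 kb, and ran from 30.7 to 50.2% leaving out a replicate. The share of broad regions on X minus that on the autosomal arms, -3.54 points, was -5.54 among regions overlapped by both replicates and ran from -3.80 to -1.48 leaving out a replicate. No difference changed sign under any alternative run. The lower counts with fewer domains, and their greater distances, follow from the limit. The cause of the other changes was not tested. No paired analysis was possible between ChIP and input because the inputs have no list of their own, and differences within each replicate are the values above that leave out the other. Depth is unknown, so what it limits cannot be said.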
